A study of Homo sapiens with 8 samples.

Results

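Transcripts of 37 genes that build and serve the primary cilium were followed in UM-RC-2 cells with and without introduced VHL. The genes were taken by symbol from the deposited count tables, and all 37 were found among 43682 gene symbols. They encode 10 subunits of the intraflagellar transport B complex (IFT-B), 3 of IFT-A, 6 subunits of the BBSome, 2 chaperonin-like proteins that assist its assembly, 11 transition zone proteins, the 3 subunits of the heterotrimeric kinesin-2 motor and the 2 polycystins. The question was whether cilium transcripts respond to VHL.

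UM-RC-2 is an established line of human clear cell renal cell carcinoma, whose VHL gene carries p.Arg82Pro (c.245G>C) per the labels. All cells carried a lentiviral construct under blasticidin selection (10 µg/ml) and stably expressed either VHL or a construct that the labels name VEC. The RNA libraries numbered 2 per group, replicates 1 and 2 of VEC and of VHL. The labels give total RNA for both replicate 1 libraries and polyA RNA for both replicate 2 libraries. VHL was therefore compared with VEC within each replicate number, and the fitted changes below come from a model with group and replicate number as terms (the blocked fit). Nothing in the labels says that the libraries of a group came from separate cultures, so the p-values measure only the spread between these libraries, which may be technical. In the blocked fit that spread was in effect shared across genes, so a gene's p-value does not show how well its own pairs agreed.

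The primary cilium is a single antenna-like projection whose shaft is a bundle of microtubules grown from a basal body. IFT trains carry cargo along it: IFT-B moves towards the tip with kinesin-2, and IFT-A returns to the base with dynein-2. The BBSome moves membrane proteins out of the cilium, and the transition zone at its base acts as a gate. In the renal tubule the cilium holds the polycystins and is thought to sense flow. The VHL protein binds microtubules, and its loss is known to impair cilia of renal cells.

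The RNA libraries held between 16230291 and 50027348 counts. Those of the same number were alike and those of the same group were not: Pearson's r over 21673 genes, on log2(CPM + 1), was 0.991 and 0.978 within the pairs but 0.502 and 0.531 within the groups, which describes the libraries since genes are no replicates. Pseudogenes took between 1.37% and 2.07% of the counts of replicate 1 libraries and between 24.9% and 31.3% in replicate 2. The 37 cilium genes took 0.169% (VEC) and 0.153% (VHL) of all counts in replicate 1, and 0.117% and 0.110% in replicate 2. Levels are given in CPM, counts scaled to library size with the trimmed mean of M-values (TMM), and for each replicate the VEC value comes before the VHL value. The VHL transcript stood at 37.1 and 146 CPM in replicate 1 and at 88.9 and 151 CPM in replicate 2, and it rose by 1.36 ± 0.23 (edgeR adjusted p = 4.63e-07). These counts do not separate introduced VHL from that of the line. The hypoxia-response gene CA9, which VHL is known to hold down, fell: it stood at 67.5 and 1.55 CPM in replicate 1 and at 61.8 and 1.40 CPM in replicate 2 (log2 change ± SE of -5.45 ± 0.29, n = 2 libraries a group, adjusted p = 2.04e-76 by edgeR's quasi-likelihood test with Benjamini-Hochberg adjustment). Of 13 renal epithelial markers 11 were abundant enough to be tested, among them PAX8 (68.8 and 75.9 CPM in replicate 1, 53.9 and 40.8 CPM in replicate 2), while EPCAM (0, 0, 2 and 2 counts) and HNF4A (0, 3, 2 and 2) were near absent. Of 5 endothelial genes PECAM1, VWF, CDH5 and KDR had 0 counts in every library, and EMCN had 0 and 0 in replicate 1 but 1133 and 1878 in replicate 2.

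No cilium transcript passed the adjusted p threshold of 0.05. Of the 37, 36 were abundant enough to be tested, and 0 of the 36 were called by edgeR's quasi-likelihood test in the blocked fit, where 3.10% of all 24417 tested genes and 3.65% of the 13908 tested protein-coding genes were called. An unadjusted p under 0.05 was found for 6 of the 36 (16.7%), against 12.5% of all tested genes and 14.1% of protein-coding genes. All 6 were lower in VHL, BBS2, KIFAP3, IFT46, IFT140, BBS1 and B9D2, and lower genes at that p made up 7.82% of all tested genes and 7.84% of protein-coding genes. With group as the only term, 0 of the 36 were called by edgeR and 0 had an unadjusted p under 0.05, at backgrounds of 0 and 0.0901%. DESeq2's Wald test with the block gave an adjusted p to 28 of them and called 4 (14.3%), all lower, BBS2, KIFAP3, PKD2 and TCTN1, at a background of 9.66% of the 12582 genes it adjusted, 5.79% for lower genes. On simulated data this DESeq2 fit made more false calls than true ones, and edgeR with group as the only term found no changed gene. Those data were drawn with the spread of the blocked edgeR fit. That setting favours the blocked edgeR fit, so the simulation does not decide on DESeq2's 4 calls. The SE of a cilium transcript in the blocked fit lay between 0.21 and 0.50 on the log2 scale, so small changes could not be told from none. In the simulation the blocked edgeR fit found 49 of 100 genes changed by 1 on the log2 scale. In the blocked fit no cilium estimate reached that size, the farthest from 0 being -0.98 (B9D2). B9D2 was at -1.03 with group as the only term, and at -1.02 with the block and DESeq2 size factors in place of TMM. In bulk libraries, fewer cells carrying a transcript and less of it per cell cannot be told apart.

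Most of the estimates were small and on the lower side. In the blocked fit 26 of the 36 had a log2 change below 0 and 10 above it, with a median of -0.28, quartiles of -0.52 and 0.02, and a range from -0.98 (B9D2) to 0.53 (BBS7). Over all tested genes the median was -0.03 with 53.0% below 0, and over protein-coding genes it was 0.01 with 49.0% below 0. The direction was the same in both pairs for 26 of the 36 cilium transcripts, 20 lower and 6 higher (55.6% and 16.7%). For protein-coding genes those shares were 29.2% and 29.8%. Alone, the replicate 1 pair had 28 of 36 lower (median -0.27) and the replicate 2 pair 22 of 36 (median -0.14). These counts and medians describe the list and carry no test.

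**Figure D1:**
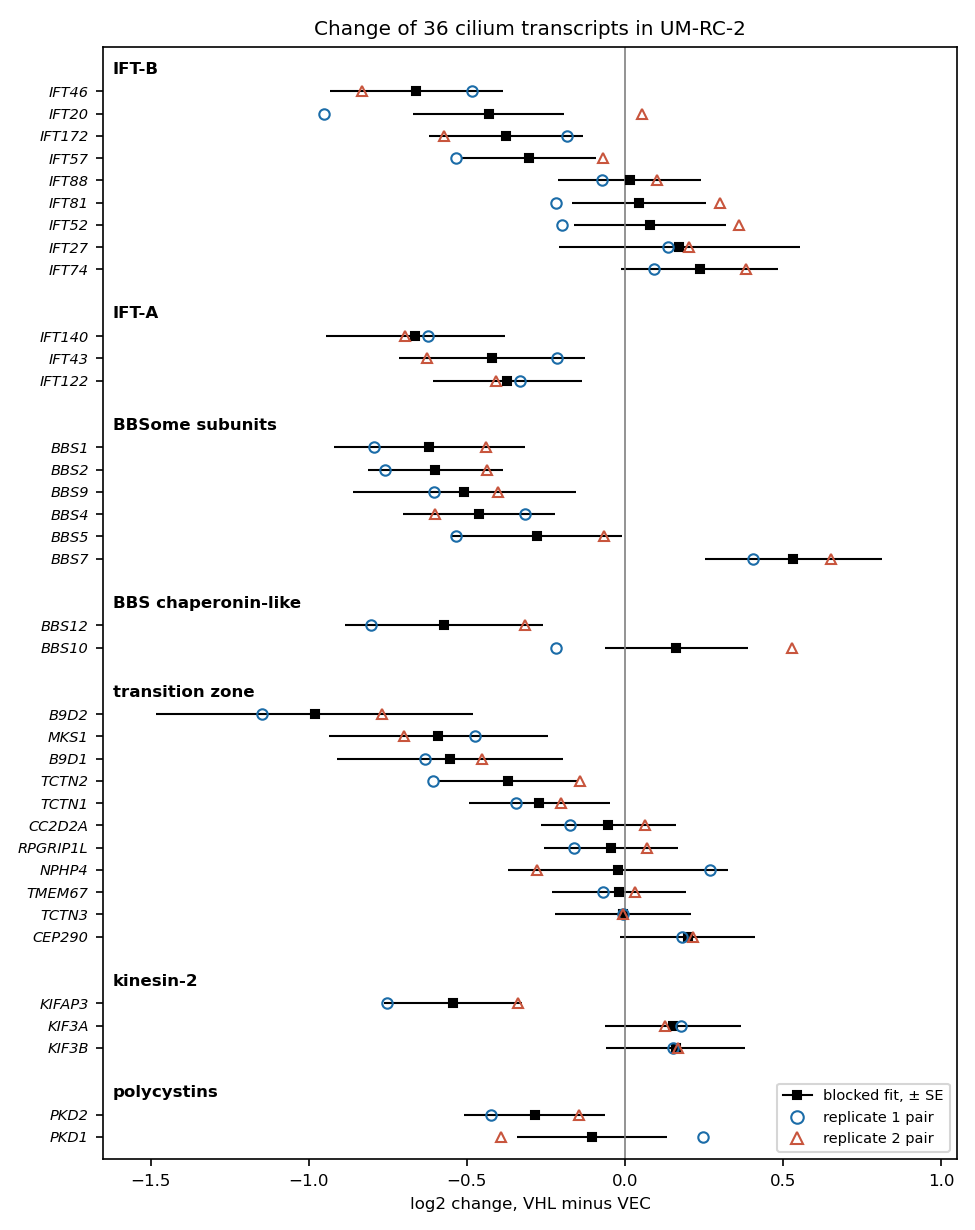
Log2 change of each tested cilium transcript, VHL minus VEC, grouped by role. Squares with bars are the blocked estimate ± SE, circles the replicate 1 pair and triangles the replicate 2 pair. BBSome and IFT-A genes lie to the left of 0 in both pairs except BBS7, while IFT-B genes scatter around 0.

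**Figure D2:**
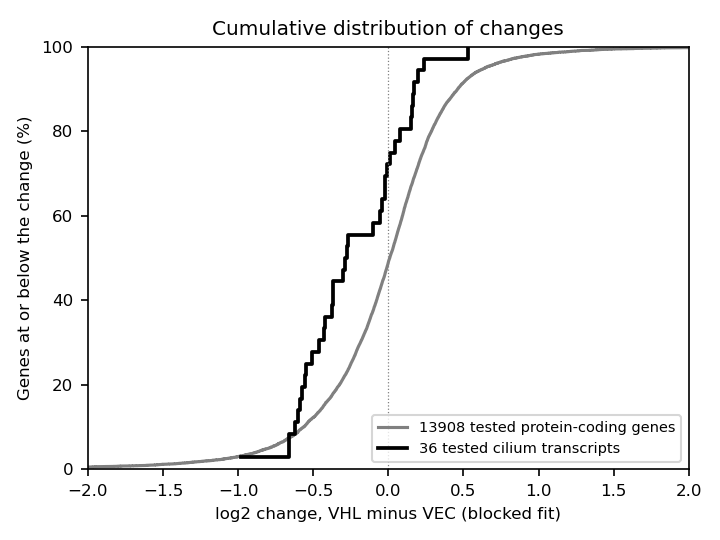
Percentage of genes (y axis) whose blocked log2 change lies at or below the value on the x axis, for 36 cilium transcripts (black) and 13908 tested protein-coding genes (grey). The cilium curve lies to the left over its middle, with a median of -0.28 against 0.01, and does not reach the long tails of the grey curve. Both axes are linear and the x axis ends at 2 on either side, so a few grey genes fall outside.

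An estimate of at least 0.5 in size with the same sign in both pairs was found for 11 of the 36 (30.6%), 10 lower and 1 higher. The share was 18.2% for protein-coding genes, and for the lower direction 27.8% against 10.7%. Those 11 were BBS1, BBS2, BBS7, BBS9, BBS12, IFT46, IFT140, B9D1, B9D2, MKS1 and KIFAP3. The promoters of the 3 with the smallest p-values, BBS2, KIFAP3 and IFT46, are shown to set their sequence beside their values. Each is the RefSeq window of 300 bases on GRCh38.p14, 250 before the gene's start and 50 after it, all on the minus strand and printed 5′ to 3′ along the gene. BBS2 lies at chr16:56519975-56520274, KIFAP3 at chr1:170074646-170074945 and IFT46 at chr11:118565882-118566181. Capitals mark GTTGCC or its reverse complement GGCAAC, a half-site of the X-box that RFX factors bind in ciliary promoters. ACGTG and its reverse complement CACGT, the core of the hypoxia response element, were searched as well on both strands.
BBS2: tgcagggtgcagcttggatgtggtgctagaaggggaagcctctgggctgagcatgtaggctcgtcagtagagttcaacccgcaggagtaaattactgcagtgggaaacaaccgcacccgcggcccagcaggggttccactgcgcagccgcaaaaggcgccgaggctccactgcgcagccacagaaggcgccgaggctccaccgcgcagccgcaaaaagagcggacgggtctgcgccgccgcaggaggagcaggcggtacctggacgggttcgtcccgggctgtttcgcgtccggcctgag
KIFAP3: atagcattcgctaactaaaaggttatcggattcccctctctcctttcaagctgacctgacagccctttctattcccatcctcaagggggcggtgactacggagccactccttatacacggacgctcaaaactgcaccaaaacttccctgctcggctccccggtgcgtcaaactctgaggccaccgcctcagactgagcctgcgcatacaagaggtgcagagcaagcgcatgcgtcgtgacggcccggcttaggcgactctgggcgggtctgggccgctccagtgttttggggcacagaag
IFT46: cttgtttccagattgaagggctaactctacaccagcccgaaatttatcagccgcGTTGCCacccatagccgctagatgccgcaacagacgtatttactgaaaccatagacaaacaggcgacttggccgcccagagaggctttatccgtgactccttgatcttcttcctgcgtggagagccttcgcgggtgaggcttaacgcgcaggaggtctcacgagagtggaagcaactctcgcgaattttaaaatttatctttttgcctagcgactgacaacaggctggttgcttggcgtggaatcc

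One half-site stood in the IFT46 window, and neither motif was in the windows of BBS2 and KIFAP3. Windows were listed for 34 of the 37 genes, all but BBS9, TCTN2 and TMEM67, and the first window listed was used. The X-box half-site was present in 13 of the 34 (38.2%), against 12.2% of 27305 windows of all genes and 12.6% of 15843 windows of protein-coding genes. The hypoxia core was present in 9 of the 34 (26.5%), against 21.6% and 23.7%. The median log2 change was -0.27 over the 13 tested genes with the X-box half-site and -0.30 over the 20 without it. It was -0.03 over the 8 tested genes with the hypoxia core and -0.30 over the 25 without, of which 4 and 19 were below 0. Letters in a window are a description, not a bound site, and these medians carry no test.

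Of the 6 BBSome subunits among the 37 genes, 5 were lower in VHL in both pairs, though 0 of the 6 passed the test. TTC8 and BBIP1, subunits on another list, differed in sign between the pairs, at -0.27 and 0.29 and at -0.29 and 0.51. BBS2, a subunit near the centre of the complex, stood at 90.0 and 53.1 CPM in replicate 1 and at 29.3 and 21.6 CPM in replicate 2. VEC was higher within each pair, but the replicate 1 libraries lay above both replicate 2 libraries. Its log2 change was -0.76 and -0.44 in the pairs and -0.60 ± 0.21 in the blocked fit (adjusted p = 0.112 in edgeR), equal to a 1.52-fold lower level. This was the smallest p among the cilium transcripts, and the call turned on the settings. BBS2 passed in 4 other blocked fits. In edgeR it passed with DESeq2 size factors (adjusted p = 0.0382, 4.09% of all genes called) and with a stricter filter (0.0211, 9.70%). It also passed on protein-coding genes alone in edgeR (0.0192, 7.15%) and in DESeq2's Wald test (0.000555). It missed in edgeR with no filter (adjusted p = 0.187, 1.95% called). Scaled by library size alone, the blocked edgeR fit called 0 of the 36 cilium transcripts, so BBS2 missed there too.

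BBS1, the subunit that contacts the small GTPase ARL6 at the membrane, stood at 14.3 and 8.26 CPM in replicate 1 and at 6.86 and 5.04 CPM in replicate 2. Its blocked log2 change was -0.62 ± 0.30 (edgeR adjusted p = 0.361). BBS9, a structural subunit, stood at 8.42 and 5.52 CPM and at 3.90 and 2.94 CPM (-0.51 ± 0.35, edgeR adjusted p = 0.654). Within each pair both genes were lower in VHL. BBS4 had log2 values of -0.31 and -0.60 in the pairs and BBS5 had -0.53 and -0.07. BBS7 went the other way. It was at 13.2 and 17.5 CPM in replicate 1 and at 6.89 and 10.8 CPM in replicate 2, a log2 change of 0.53 ± 0.28 (edgeR adjusted p = 0.428), although BBS7 sits in the same complex and is known to form its core with BBS2 and BBS9. The chaperonin-like genes split as well. BBS12 stood at 15.7 and 8.95 CPM in replicate 1 and at 4.01 and 3.21 CPM in replicate 2 (-0.57 ± 0.31, edgeR adjusted p = 0.462). BBS10 differed in sign between the pairs, at -0.22 and 0.53.

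All 3 IFT-A transcripts among the 37 genes were lower in VHL in both pairs, and 0 of the 3 passed the test. Of the IFT-A subunits on another list, WDR19 (-0.28 and -0.20) and TTC21B (-0.47 and -0.22) were also lower in both pairs. WDR35 was higher in both, at 0.08 and 0.51. IFT140, a core subunit of the returning train, gave 20.1 and 13.0 CPM in replicate 1 and 9.12 and 5.61 CPM in replicate 2. Its pair changes of -0.62 and -0.70 were close to each other, and the blocked estimate was -0.66 ± 0.28 (edgeR adjusted p = 0.240). The pair values were -0.33 and -0.41 for IFT122, another core subunit, and -0.21 and -0.63 for IFT43, a peripheral subunit. Their blocked estimates were -0.37 ± 0.24 and -0.42 ± 0.29.

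IFT-B transcripts had no common direction. Of the 9 tested, 4 were below 0 and 5 above, with a median of 0.01, and 3 were lower and 2 higher in both pairs. IFT46 was the lowest of them, at 22.7 and 16.2 CPM in replicate 1 and at 9.98 and 5.58 CPM in replicate 2. Its change was -0.48 and -0.83 in the pairs and -0.66 ± 0.27 in the blocked fit (edgeR adjusted p = 0.217). The other genes lower in both pairs were IFT57 (-0.54 and -0.07) and IFT172 (-0.18 and -0.57), the latter the largest subunit and a link to the train's turnaround at the tip. IFT88 and IFT81, core subunits that trains are built on, had blocked estimates of 0.01 ± 0.23 and 0.04 ± 0.21. IFT74, the partner of IFT81 in binding tubulin, stood at 27.3 and 29.1 CPM and at 9.52 and 12.4 CPM. IFT20, singled out after its values were seen, had unlike values in the pairs. This subunit, which also sits at the Golgi, was at 26.7 and 13.8 CPM in replicate 1 but at 26.6 and 27.6 CPM in replicate 2, so that 1 library of the 4 stood below the others. IFT80 had 4 and 5 counts in replicate 1 and 5 and 5 in replicate 2 and was not tested. The read-through gene TRIM59-IFT80, which overlaps it in the RefSeq table, had 51 and 35 counts and 2754 and 2602 counts, and how reads shared by the genes were assigned is not stated.

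**Figure D3:**
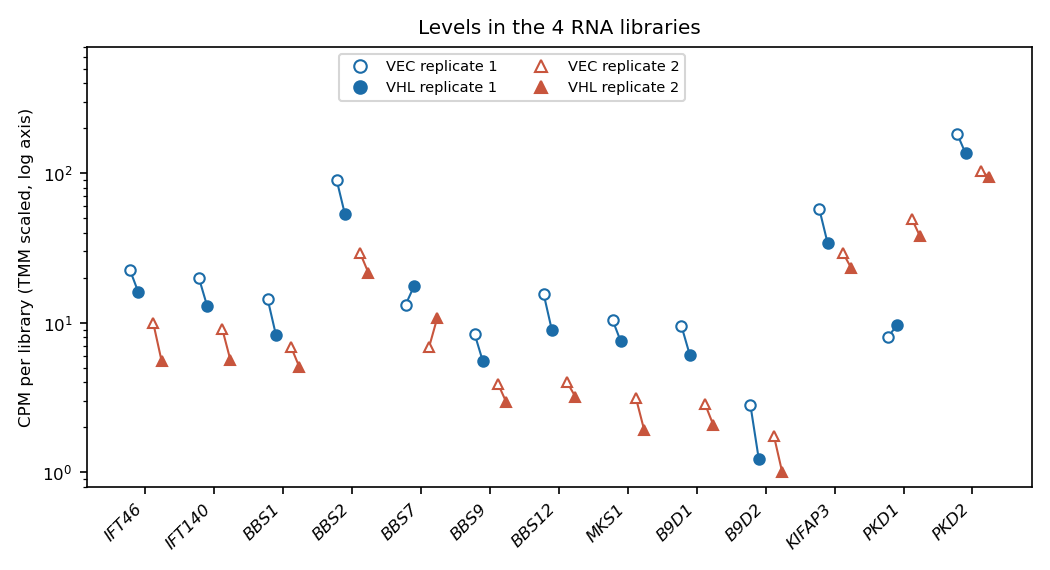
Level in each of the 4 RNA libraries, in TMM-scaled CPM on a log axis, for the 11 transcripts with an estimate of at least 0.5 in size and for PKD1 and PKD2. Open symbols are VEC, filled symbols VHL, circles replicate 1 and triangles replicate 2, and lines join the pair. Lines slope down from VEC to VHL in both pairs except for BBS7, which slopes up in both, and PKD1, which slopes up in replicate 1.

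Transition zone transcripts were below 0 in the blocked fit for 10 of 11, with a median of only -0.05, and 0 of 11 passed the test. The 3 lowest were B9D2, MKS1 and B9D1, which encode the B9-domain proteins that form a complex with each other at the gate. MKS1 stood at 10.5 and 7.50 CPM in replicate 1 and at 3.14 and 1.91 CPM in replicate 2 (-0.59 ± 0.35, edgeR adjusted p = 0.529). B9D1 stood at 9.50 and 6.11 CPM and at 2.87 and 2.08 CPM (-0.55 ± 0.36, edgeR adjusted p = 0.606). B9D2 had few reads, 65 and 23 counts in replicate 1 and 80 and 41 in replicate 2, and a blocked estimate of -0.98 ± 0.50 (edgeR adjusted p = 0.398), equal to a 1.98-fold lower level. All 3 genes of the B9 family were thus lower in VHL within both pairs, at low levels.

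The remaining gate genes lay closer to 0. TCTN1 and TCTN2, of the tectonic family, had log2 values of -0.34 and -0.61 in replicate 1 and of -0.20 and -0.14 in replicate 2, and TCTN3 had -0.01 in both. CC2D2A, RPGRIP1L, TMEM67 and NPHP4 had blocked estimates between -0.05 and -0.02, and each differed in sign between the pairs. CEP290, which bridges the microtubules to the membrane at the gate, was at 108 and 122 CPM and at 51.9 and 60.3 CPM, the single gate gene higher in both pairs (0.20 ± 0.21).

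Among the kinesin-2 subunits 1 lay below 0 and 2 above. KIFAP3, the accessory subunit that links the motor to its cargo, was at 57.3 and 34.0 CPM in replicate 1 and at 29.5 and 23.3 CPM in replicate 2. Its pair changes were -0.75 and -0.34, and the blocked estimate of -0.54 ± 0.22 did not pass (edgeR adjusted p = 0.194), although DESeq2's Wald test with the block called it (adjusted p = 0.0268). The motor subunits lay slightly above 0 in both pairs. KIF3A stood at 43.8 and 49.6 CPM and at 119 and 129 CPM (0.15 ± 0.22), and KIF3B at 128 and 142 CPM and at 96.9 and 109 CPM (0.16 ± 0.22). Whether KIFAP3 differed from its partners was not tested.

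The polycystins are a receptor-like protein (PKD1) and a cation channel (PKD2) mutated in polycystic kidney disease. PKD2 was at 183 and 136 CPM in replicate 1 and at 104 and 94.3 CPM in replicate 2, a blocked log2 change of -0.29 ± 0.22 (edgeR adjusted p = 0.722). DESeq2's Wald test with the block gave it -0.32 and an adjusted p of 0.0402, the largest of its 4 calls. PKD1 differed in sign between the pairs, at 8.08 and 9.60 CPM in replicate 1 and at 49.6 and 37.8 CPM in replicate 2 (-0.10 ± 0.24, edgeR adjusted p = 0.968). PKD1 is uncertain, since near-identical copies of it exist: the 6 pseudogenes PKD1P1 to PKD1P6 together had 43 and 47 counts in replicate 1 and 9746 and 6278 in replicate 2, against 187, 179, 2263 and 1545 for PKD1 itself. The part of shared reads in its level was not tested.

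Levels differed more between the replicate numbers than between VEC and VHL. Replicate 2 was lower than replicate 1 by more than 1 on the log2 scale of mean CPM for 15 of the 36 cilium transcripts and higher by more than 1 for 4, TCTN1, PKD1, BBS5 and KIF3A, with a median of -0.79 against -0.49 over 13121 protein-coding genes. TCTN1 was at 42.3 and 33.3 CPM in replicate 1 and at 215 and 187 CPM in replicate 2. Without the block, the SE of a cilium transcript ran from 0.45 to 1.44, against 0.21 to 0.50 with it.

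Another 96 cilium genes on 7 lists gave the setting of these values. Of the 90 tested, 1 was called in the blocked fit (HDAC6, lower), against 3.10% of all tested genes, and the median log2 change was -0.03, with 47 below 0 and 43 above. The list nearest in role held 16 other IFT and BBS genes, such as TTC30A, IFT22, WDR35 and MKKS. Of these, 10 were below 0 and 6 above (median -0.16), with 0 called. By pair, 12 of the 16 were lower in replicate 1 and 8 in replicate 2. Of 5 dynein-2 genes 4 were below 0 (median -0.32), and 0 were called. None passed among 15 further transition zone and inversin genes (median -0.02), 20 basal body and ciliogenesis genes (0.03), 15 genes of the ciliary membrane and Hedgehog signalling (-0.11) or 10 transcription factors (0.17), by edgeR's blocked fit. At an unadjusted p under 0.05 these 6 lists held 3 genes, TTC30A, IFT22 and GLI3. Over all 7 lists 5 of the 90 tested (5.56%) had such a p by edgeR. The share was 12.5% for all tested genes and 14.1% for protein-coding genes. GLI3 had the highest estimate on the 7 lists, 1.18 ± 0.41 (edgeR adjusted p = 0.105), at 16 and 39 counts in replicate 1 and 180 and 311 in replicate 2.

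HDAC6, the deacetylase that acts on tubulin of the shaft as cilia are taken down, was the 1 called gene and fell in VHL. Its level was 42.4 and 26.2 CPM in replicate 1 and 13.8 and 6.54 CPM in replicate 2. VHL was below VEC in each pair, with log2 changes of -0.69 and -1.07, and the blocked change was -0.88 ± 0.24 (adjusted p = 0.0152 in edgeR), a 1.84-fold lower level. It was called in 5 other blocked fits, and not with group as the only term (adjusted p = 0.999991, edgeR). Its value in the blocked fit scaled by library size alone was not read. Of the 9 tested disassembly genes HDAC6 and KIF24 were below 0 and 7 above (median 0.19), among them AURKA, the kinase that activates HDAC6, at 0.10 ± 0.23. NEDD9, a scaffold that activates AURKA, singled out after its values were seen, had 3 and 1 counts in replicate 1 but 27047 and 54161 in replicate 2, so that its blocked estimate of 1.07 ± 0.36 (adjusted p = 0.0830 in edgeR) rests on the replicate 2 pair.

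Genes known from motile cilia were present in part. Of 14 markers 10 were tested, and DNAI2 and TEKT1 had 0 counts in every library. CCDC39, DNAH5, HYDIN and CCDC40 had between 48 and 606 counts in every library, and SPAG6 had 0 and 0 counts in replicate 1 but 307 and 281 in replicate 2. FOXJ1, the master factor of multiciliated cells and a member of the transcription factor list, had 12, 15, 2 and 2 counts. The 1 called gene was DNAH11, which encodes a heavy chain of the outer arm of axonemal dynein. Its counts were 4330 and 103 in replicate 1 and 1895 and 72 in replicate 2. Scaled levels were 187 and 5.52 CPM and 41.6 and 1.76 CPM, with VHL below VEC in both pairs and below both VEC libraries. The blocked log2 change was -4.83 ± 0.26 (edgeR adjusted p = 1.06e-72), a 28.5-fold lower level. The list's median was 0.03.

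**Figure D4:**
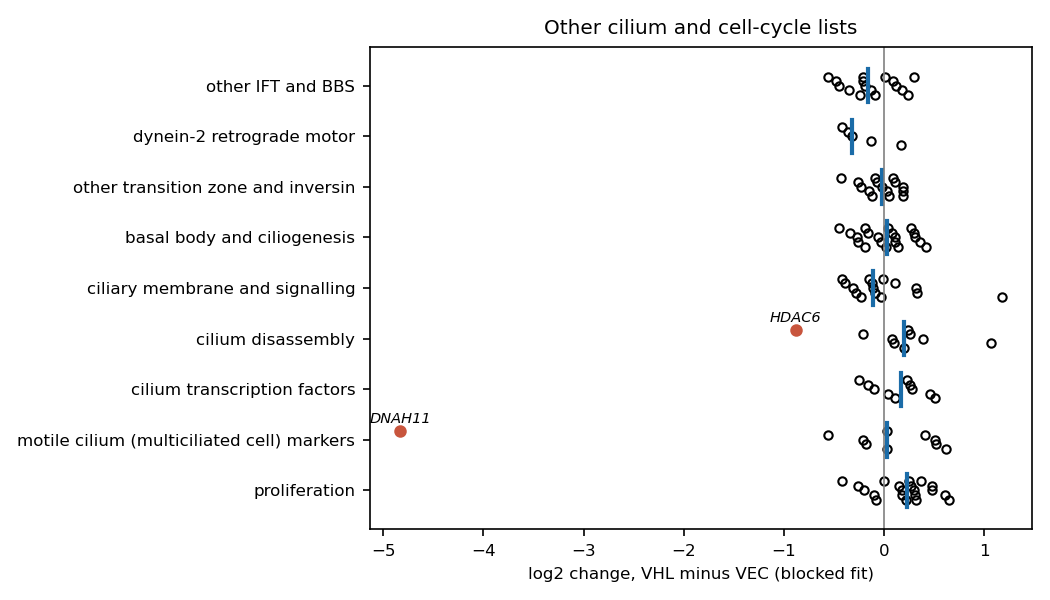
Blocked log2 change (x axis, VHL minus VEC) of each tested gene on 9 further lists (rows), with the list's median as a vertical bar. Filled points passed an adjusted p of 0.05 in edgeR's blocked fit. HDAC6 at -0.88 and DNAH11 at -4.83 are the 2 called genes. Most other points lie near 0, but GLI3 at 1.18 and NEDD9 at 1.07, not called, lie farther from 0 than HDAC6.

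Cell-cycle and renal markers were read beside the cilium genes, since cycling cells are known to resorb their cilia. Of 20 proliferation genes 15 were above 0 and 5 below in the blocked fit (median 0.23), and 0 were called by edgeR, with 3 at an unadjusted p under 0.05 (15.0%, against 14.1% of protein-coding genes). Their summed share was 6762 and 8039 CPM, unscaled, in replicate 1 and 2672 and 3236 in replicate 2, higher in VHL in each pair. Unscaled shares also move with the protein-coding part of the counts, which was 65.6% (VEC) and 71.8% (VHL) in replicate 2. By gene, 8 of the 20 were higher and 3 lower in both pairs, and 9 differed in sign between them. Of the 11 renal epithelial markers tested 9 were below 0 (81.8%, against 53.0% of all tested genes and 49.0% of protein-coding genes). The replicate 1 pair had 6 of the 11 lower and the replicate 2 pair 9, with 6 lower in both. Among the 11, 2 were called, where 3.10% of all tested genes were. CUBN, an endocytic receptor of the proximal tubule, fell, with 359 and 70.4 CPM in replicate 1 and 153 and 52.6 CPM in replicate 2 (-1.94 ± 0.24, edgeR adjusted p = 1.99e-13). The water channel AQP1 rose, with 8 and 32 counts in replicate 1 and 8 and 45 in replicate 2 (2.47 ± 0.69, edgeR adjusted p = 0.0173). The part of cell-cycle state in the cilium values was not tested.

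Reads of 12 of the 37 genes could overlap those of a protein-coding neighbour, by the gene positions of the RefSeq table. They were IFT20, IFT46, IFT74, IFT140, IFT172, BBS1, BBS2, TCTN1, B9D1, B9D2, CEP290 and PKD1. Whether the counting used strand is not stated, and the values of these genes are uncertain to that extent.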

How the data were processed

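The deposited RNA values are raw counts per gene symbol, made by the authors from hg19 alignments per the file headers; featureCounts is named in the submitters' processing notes. The aligner, annotation, strand setting and treatment of multi-mapping reads are not given in the sources used here. The H3K27ac tables were not used here, since their regions carry no positions.

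Counts were tested with edgeR 4.0.16 (R 4.3.3): filterByExpr (24417 of 43682 symbols), TMM, and the quasi-likelihood F test (glmQLFit, glmQLFTest, two-sided) with Benjamini-Hochberg adjustment over all tested genes. The model held group and replicate number, because the labels give total RNA for replicate 1 and polyA RNA for replicate 2; deviations from the group means correlated at 0.983 between same-numbered libraries. This block left 1 residual degree of freedom. SE is the absolute log2 change over the square root of F. In the blocked fit it barely followed a gene's own pairs. It was 0.21 for TCTN3 (pair changes of -0.01 and -0.01) and 0.24 for IFT20 (-0.95 and 0.05). Pair changes are differences of log2 CPM with a prior count of 2. Alternatives were a fit without the block, other scalings and filters, protein-coding genes alone, DESeq2 1.42.0 and leaving out libraries. The fits were tested on simulated data with 200 changed genes. There the blocked edgeR fit found 139 of them and made 9 false calls. DESeq2 made more false calls than true ones, and edgeR without the block made no true one. The simulated counts were drawn with the spread that the blocked edgeR fit gives to genes of like level, with none of a gene's own. That setting favours this fit, so the simulation does not rank the tools on the real data. Gene classes, neighbours and promoters came from RefSeq tables of GRCh38.p14, which matched 97.8% of symbols.

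Members and lists were chosen with earlier results of these data known. Full values are given for members called, for those whose log2 change reached 0.5 in size with 1 sign in both pairs (or opposite pair changes of that size), and for both polycystins; on other lists, for up to 5 called genes.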

Additional observations from a re-analysis of the deposited data

How the results depend on the processing

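The replicate block decided the counts of calls over all genes: 756 passed with it and 0 without it, with 22 at an unadjusted p under 0.05 (edgeR). With the block, 1227 genes passed under the stricter filter (a mean of at least 20 counts in each replicate number) and 1215 in DESeq2's Wald test. Among cilium members the count of 0 became 1 (BBS2) with DESeq2 size factors, under the stricter filter and with protein-coding genes alone. It became 4 in DESeq2's Wald test. The count was 0 without a filter, with library size alone as the scaling, and without the block. Among the 96 other cilium genes the count of 1 became 0 without the replicate block. It was 2 with DESeq2 size factors and under the stricter filter, and 3 in DESeq2's Wald test and with protein-coding genes alone. The share of tested genes called moved too, from 3.10% to 4.09% (DESeq2 size factors), 9.70% (stricter filter), 9.66% (Wald test) and 7.15% (protein-coding genes). Leaving out 1 library without the block gave 0 calls on all genes, members and other lists alike. The blocked fit has no residual degrees of freedom without a library, so its calls could not be retested that way.

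The fit scaled by library size alone was left out of the medians. In every other fit that kept the 4 libraries, the members' median log2 change of -0.28 lay between -0.32 and -0.28. Without replicate 1 it was -0.14 and without replicate 2 it was -0.27; leaving out 1 library in the fit without the block, where the replicate numbers are then unbalanced between groups, gave medians of 0.20 (without VEC replicate 1), -0.58 (without VHL replicate 1), -0.49 (without VEC replicate 2) and -0.081 (without VHL replicate 2). Between 25 and 28 members were below 0 under the scalings, filters and tools tried, a count added after the data were seen, and between 26 and 29 kept 1 direction in both pairs.

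Among the genes named, those whose estimate had the opposite sign in the unbalanced fits without VEC replicate 1 were IFT46 (0.13), IFT140 (0.030), BBS2 (0.35), BBS9 (0.12), BBS12 (0.60), MKS1 (0.58), B9D1 (0.51), PKD2 (0.14) and HDAC6 (0.25). So did MKS1 without VHL replicate 2 (0.14), and PKD1 without VHL replicate 1 (0.39), without VEC replicate 2 (1.60) and without replicate 2 (0.25, against -0.39 without replicate 1). The cause was not tested beyond the imbalance these fits have by construction. Low counts limit B9D2 (23 to 80 per library), AQP1 (8 to 45) and, in replicate 1, NEDD9 (3 and 1), and IFT80 was too low to test.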
